A study of Mus musculus with 30 samples.

Results

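The 9 genes described here encode Ly49 receptors other than the activating Ly49H and Ly49D, and most of their products are inhibitory: Klra1 (Ly49A), Klra2 (Ly49B), Klra3 (Ly49C), Klra5 (Ly49E), Klra6 (Ly49F), Klra7 (Ly49G), Klra9 (Ly49I), Klra10 (Ly49J) and Klra17 (Ly49Q). They were taken by symbol, and they are 9 of 30587 genes in a table of expression in mouse natural killer (NK) cells. Cells carrying a green reporter driven by NKp46, an NK cell receptor, were sorted after skin grafting in 2 models, into 10 groups of 3 libraries each.

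In the F1 model, recipients were NKp46+/iCre.Rosa+/mTmG mice of strain C57BL/6xBalb/c, which received m157tgB2m+/- skin and were studied 10 days later. In the B6 model, recipients were NKp46iCre/iCre.RosamTmG/mTmG mice of strain C57BL/6, which received m157tgB2m-/- skin and were studied 20 days later. All recipients thus carried the NKp46 Cre and the Rosa reporter, and all grafts carried the m157 transgene, which encodes a viral ligand of Ly49H. Each model gave CD49a+ cells of the graft, CD49a+ cells of the recipient's own skin, and CD49b+ cells of the graft, the spleen and the blood. CD49b marks circulating NK cells and CD49a marks many tissue-resident innate lymphocytes. Strain, copies of the Cre and reporter alleles, graft genotype and day all differed between the models, so that their parts in any difference between F1 and B6 cannot be told apart. The labels do not say whether the libraries of a group came from separate animals, so p-values measure the spread between these libraries, which may be technical.

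Ly49 receptors are homodimeric lectin-like proteins on NK cells. Inhibitory members bind MHC class I on a neighbouring cell and recruit the phosphatase SHP-1 through an immunoreceptor tyrosine-based inhibitory motif (ITIM) in the cytoplasmic tail, which holds back killing of cells that keep their class I molecules. Each NK cell switches on its own subset of the genes, so a bulk level combines how many cells express a receptor with how much RNA each holds, and fewer expressing cells and less RNA per cell cannot be told apart here. Ly49C and Ly49I bind class I molecules of C57BL/6, whereas Ly49A and Ly49G bind H2-Dd, which BALB/c mice carry and C57BL/6 mice lack. BALB/c mice also have a different and smaller set of Ly49 genes, without Ly49H.

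The genes lie on the minus strand of chromosome 6 (GRCm38, GENCODE M21 annotation), 8 of them between 129831154 and 130386874, and Klra2 apart from them at 131219223 to 131247362. The first bases of the coding sequence show what the members share and what separates them from the activating receptors. They are given for the members with the highest signal, for Klra2 and for both activating receptors, with their position on the minus strand of GRCm38 and the codons of the ITIM in capitals:
Klra7 (chr6:130231558-130231617): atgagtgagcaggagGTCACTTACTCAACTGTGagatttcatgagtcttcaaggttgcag
Klra9 (chr6:130191242-130191301): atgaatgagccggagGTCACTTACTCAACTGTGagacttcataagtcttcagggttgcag
Klra3 (chr6:130335740-130335799): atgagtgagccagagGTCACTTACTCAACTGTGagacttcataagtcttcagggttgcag
Klra1 (chr6:130380603-130380662): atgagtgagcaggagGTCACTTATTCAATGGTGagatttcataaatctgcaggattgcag
Klra2 (chr6:131245267-131245326): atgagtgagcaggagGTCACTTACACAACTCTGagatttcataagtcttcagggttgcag
Klra4 (chr6:130065243-130065302): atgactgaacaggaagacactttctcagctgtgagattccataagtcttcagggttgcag
Klra8 (chr6:130128101-130128160): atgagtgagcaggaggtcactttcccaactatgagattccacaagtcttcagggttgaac
All 9 members held an ITIM starting at codon 6, Klra4 and Klra8 held none in their first 60 codons, and 7.5% of 21654 coding genes held one there. Klra3 and Klra9 differed at 2 of these 60 bases, and Klra1 differed from Klra3 at 9. Shared words were counted over the whole transcripts of this annotation, which need not be the set that the authors used. There, 57.8% of the 31-base words of Klra9 and 43.5% of those of Klra3 also occurred in another Klra gene. Of the words of Klra3, 31.8% occurred in Klra9. The share was 65.1% for Klra10, 24.7% for Klra7, 7.28% for Klra1 and 0% for Klra2. For the activating Klra8 it was 55%, and 23.7% of its words occurred in Klra9 and 13.2% in Klra3. Signal could therefore be divided differently among Klra3, Klra9, Klra10 and Klra8 by the authors' quantification. Their single values are in this respect less certain than those of Klra1 and Klra2. Klra13-ps, an annotated pseudogene that shares 23.6% of the words of Klra7, had a mean of 297 in F1 and 551 in B6 spleen cells, near the signal of Klra7 itself, which was 321 in F1 and 499 in B6.

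The values are normalized signal, made by the authors with Salmon and DESeq2, and they are not divided by gene length. Signal summed to between 1529124 and 3988756 in the 18 skin libraries and between 3502576 and 5717946 in the 12 blood and spleen libraries, and satellite-like predicted genes held 18.6% to 78.3% and 78.9% to 85.1% of it. Read depth is unknown. The skin libraries were uneven: the geometric mean level of 20 pan-leukocyte transcripts was 7.996% to 85.04% of the blood and spleen level in them. It was under 25% in 6 of the 18 libraries, which were replicates 1 and 3 of B6 graft CD49a+ cells, replicates 2 and 3 of F1 recipient skin and replicates 1 and 3 of B6 recipient skin. The summed signal of 9 NK cell markers was 286 to 14021 in skin and 12166 to 15279 in blood and spleen, and none of those markers was at 0 throughout a group. Such a sum is led by its highest genes and need not follow NK cell content. The library at 14021, replicate 1 of F1 graft CD49b+ cells, had 57 for Ncr1, 134 for Klrb1c and 1299 for Nkg7. In F1 spleen these genes had 870 ± 7.76, 628 ± 67.5 and 2550 ± 139. Keratinocyte and fibroblast marker sums reached 2677 and 4382 in replicate 1 of B6 graft CD49a+ cells, against highest values of 65.7 and 180 in blood and spleen. T cell markers summed to 102 to 347 in skin and to 37.4 to 165 in blood and spleen.

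In blood and spleen, 4 of the 9 genes carried nearly all of the signal. Per kilobase of transcript, Klra7 had a mean level of 299 ± 29.8 in F1 and 464 ± 26.1 in B6 spleen cells (SD, n = 3 each). Klra3 had 213 ± 21 in F1 and 121 ± 11.2 in B6 spleen cells. Klra9 had a level per kilobase of 119 ± 10.1 in F1 and 192 ± 3.82 in B6, and Klra1 had 33.6 ± 12 in F1 and 78.2 ± 13.2 in B6. Klra3 thus came next after Klra7 in F1, and Klra9 did in B6. The other 5 genes had levels per kilobase of 1.37 to 17.7 in F1 and 1.03 to 21.6 in B6 spleen cells. The activating Klra4 and Klra8 had 375 and 350 per kilobase in F1, against 688 and 692 in B6.

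**Figure D1:**
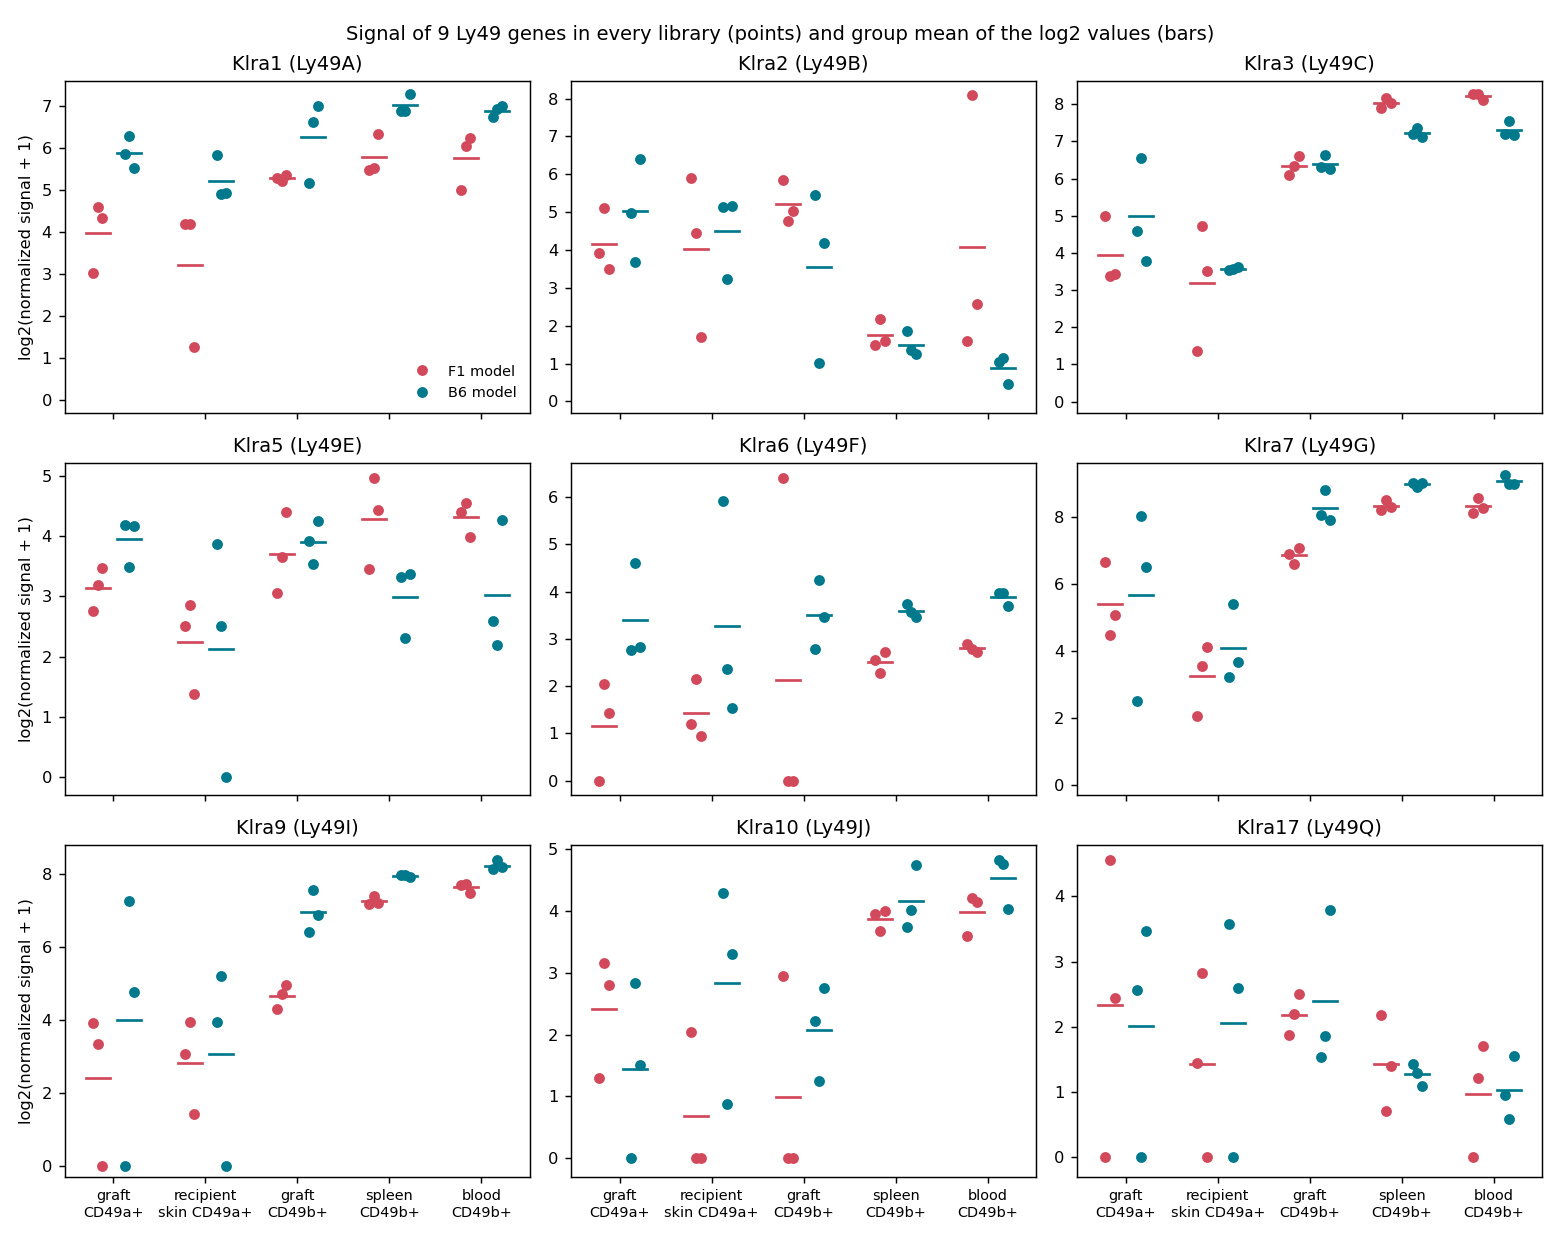
Signal of each gene on the log2(signal + 1) scale in the 5 sorted populations, F1 in red on the left and B6 in teal on the right of each pair; points are libraries and bars are means of the log2 values (n = 3). Klra7, Klra9 and Klra3 are high in spleen and blood and low in recipient skin in both models, while Klra2 is low in spleen and blood apart from 1 F1 blood library at 270.

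Klra3 was the one abundant member that was higher in F1 than in B6 circulating cells. In spleen it had a signal of 238, 289 and 263 in F1, against 145, 165 and 139 in B6. In blood it had 310, 307 and 277 in F1, against 145, 187 and 143 in B6. The groups did not overlap in either tissue. Ly49C, its product, is an inhibitory receptor with a broad range of class I ligands.

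Klra7, Klra9 and Klra1 were lower in F1. The signal of Klra7 in spleen was 294, 356 and 314 in F1, against 515, 467 and 515 in B6, and in blood it was 272, 375 and 305 in F1, against 603, 502 and 499 in B6. Klra9 had 142, 167 and 147 in F1 spleen, against 247, 250 and 240 in B6 spleen, and in blood 207, 209 and 177 in F1, against 277, 329 and 288 in B6. Klra1 had 43.7, 45.2 and 79.2 in F1 spleen, against 117, 118 and 156 in B6 spleen, and in blood 31.2, 65.1 and 74.5 in F1, against 106, 122 and 127 in B6. For all 3 genes every F1 library lay below every B6 library in both tissues. Klra6 was also without overlap, at 4.76 ± 0.863 in F1 and 11.1 ± 1.12 in B6 spleen, and at 5.98 ± 0.412 in F1 and 13.8 ± 1.61 in B6 blood. In each tissue 4 of the 9 genes lay wholly lower in F1, against 7.55% of all tested genes in spleen and 8.41% in blood, and 2 lay wholly higher, against 6.4% and 9.09%. The 2 were Klra3 and Klra5 in spleen, and Klra3 and Klra2 in blood.

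The test over all 30 libraries did not call any of these differences. It was limma on log2(signal + 1) across 16045 genes, with Benjamini-Hochberg adjustment and a threshold of 0.05, and its estimate of the spread includes the uneven skin libraries. Adjusted p was 1 for each of the 9 genes in both tissues, at an unadjusted p under 0.05 for 1 gene in blood (Klra2) and 0 in spleen, while 0.162% and 0.175% of all genes were called in blood and spleen. A fit to the 12 blood and spleen libraries alone, added after the data were seen, called 3 of the 9 genes in blood and 2 in spleen, against 1.55% and 0.876% of the 15975 genes tested. Klra3 was higher in F1 by 0.81 ± 0.13 in spleen (log2 ± SE, adjusted p = 0.0163 by limma) and by 0.92 ± 0.13 in blood (adjusted p = 0.00551). Klra9 was lower, with a log2 difference of -0.69 ± 0.11 in spleen (adjusted p = 0.013) and -0.59 ± 0.11 in blood (adjusted p = 0.0221). Klra7 was lower in blood at -0.76 ± 0.13 (adjusted p = 0.017), and in spleen its difference of -0.64 ± 0.13 had an adjusted p of 0.0564. Klra1, at -1.25 ± 0.32 in spleen and -1.13 ± 0.32 in blood, had adjusted p-values of 0.148 and 0.147 and so was not called.

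When any single library of the compared groups was left out of that fit, Klra3 in blood stayed called in 6 of 6 fits, with differences of 0.85 to 1.04. Klra9 in blood stayed called in 4 of 6, and lost the call without replicate 3 of F1 blood (adjusted p = 0.0782) or replicate 2 of B6 blood (adjusted p = 0.105). The other calls were lost more often. Klra3 in spleen kept its call in 2 of 6 fits, without replicate 1 of F1 or replicate 2 of B6 spleen, and otherwise had adjusted p-values up to 0.0767. Klra9 in spleen kept its call in 2 of 6, without replicate 2 of F1 or replicate 3 of B6 spleen, and otherwise had values up to 0.0558. Klra7 in blood kept its call in 2 of 6, without replicate 2 of F1 or replicate 3 of B6 blood, and otherwise had values up to 0.0744. The sign of each difference was the same in all these fits. With the libraries scaled to the pan-leukocyte transcripts, Klra9 in blood was not called (-0.41, adjusted p = 0.1), Klra7 in spleen was (-0.60, adjusted p = 0.0313), and Klra3 was called in both tissues.

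**Figure D2:**
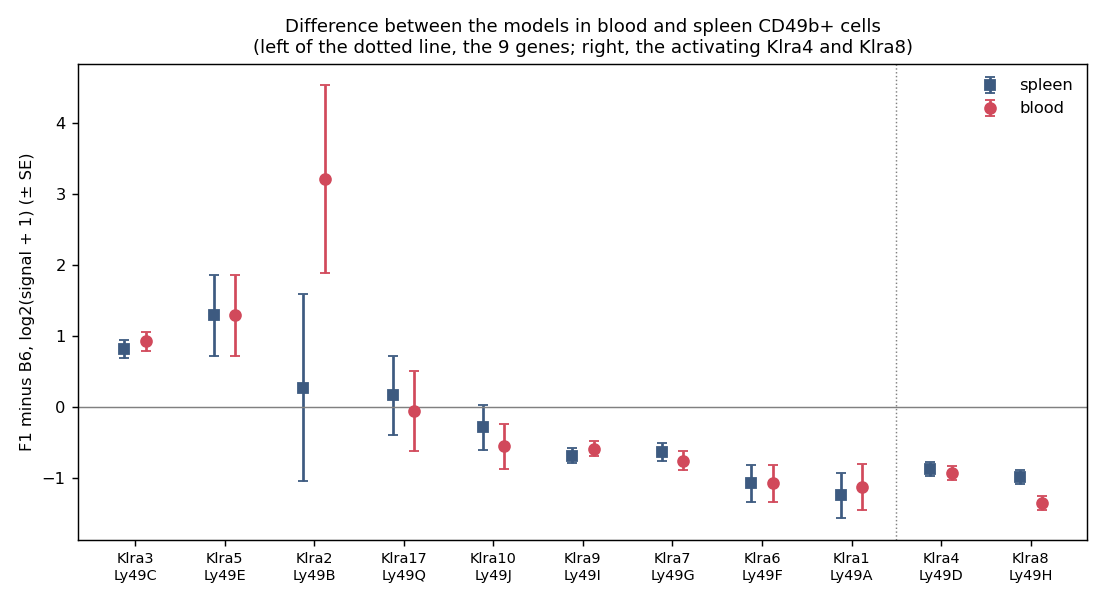
Difference F1 minus B6 in log2(signal + 1) with its standard error, from the fit to the 12 blood and spleen libraries, for spleen (squares) and blood (circles); the activating Klra4 and Klra8 stand right of the dotted line. Klra3 lies above 0 at 0.81 and 0.92 with short error bars, and Klra9, Klra7, Klra6, Klra1, Klra4 and Klra8 lie below 0 in both tissues.

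The activating receptors were lower in F1 in the same fit: Klra4 by a log2 difference of -0.88 in spleen and -0.94 in blood, and Klra8 by -0.99 and -1.36, each with an SE of 0.10 and an adjusted p of 0.00124 or less. Klra3 thus stood against the direction of both, while the differences of Klra7 and Klra9 were smaller in size than theirs in each tissue. These gaps between genes were not tested. Klra8 shares part of its sequence with Klra9 and Klra3, so the signals of these genes may not be fully separate.

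The share of each gene in the summed Ly49 signal does not depend on how a library was scaled. Klra3 made up 31.5% ± 0.457 of the summed signal of the 9 genes in F1 spleen and 14.1% ± 1.73 in B6 spleen (SD, n = 3 each), and 30.6% ± 6.05 in F1 and 13.7% ± 1.85 in B6 blood. Klra7 made up 38.4% ± 1.23 in F1 and 46.9% ± 1.66 in B6 spleen, and 31.9% ± 2.67 in F1 and 46.2% ± 4.48 in B6 blood. Klra9 made up 18.2% ± 0.79 in F1 and 23.1% ± 1.15 in B6 spleen, and Klra1 6.71% ± 2.31 in F1 and 12.2% ± 1.71 in B6 spleen. These shares did not overlap between the models. In a two-sided exact permutation test each gave p = 0.10, the smallest that 3 against 3 allows, and 0.114 after adjustment over 8 comparisons. The share of Klra9 in blood, 20.2% ± 3.8 in F1 and 25.8% ± 2.15 in B6, overlapped (exact p = 0.20). The sum of F1 blood replicate 2 includes the Klra2 signal of 270. With signal divided by transcript length, the share of Klra3 was 30.1% ± 0.257 in F1 and 13.5% ± 1.68 in B6 spleen, and that of Klra7 42.3% ± 1.08 in F1 and 51.8% ± 1.72 in B6 spleen.

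**Figure D3:**
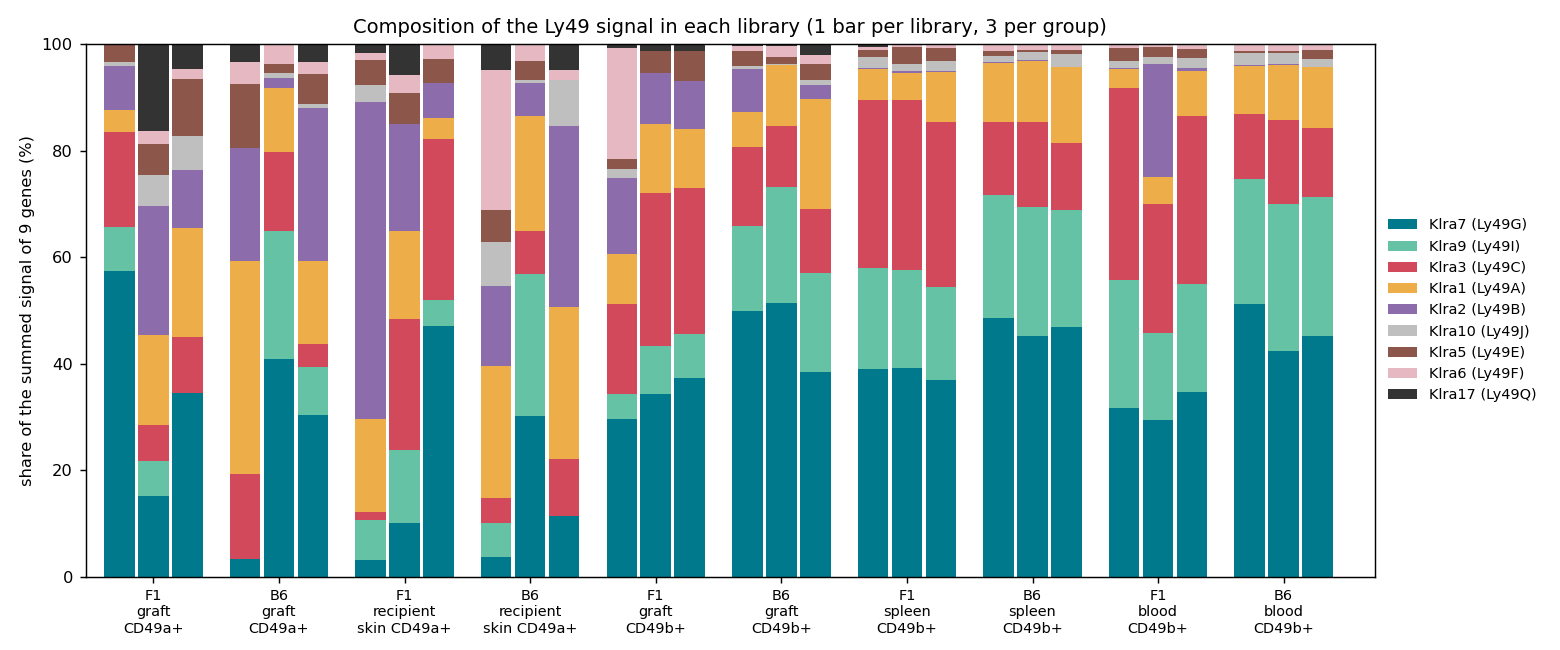
Share of the summed signal of the 9 genes taken by each gene, 1 stacked bar per library and 3 per group, F1 left of B6 within each population. The red Klra3 segment averages 31.5% in F1 and 14.1% in B6 spleen, and bars of CD49a+ cells, whose sums are small, differ widely among replicates.

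Because Klra3 and Klra9 share much of their sequence, their sum and split were also taken; this pair was chosen after its values were seen. The sum was 380, 456 and 410 in F1 spleen, against 392, 415 and 379 in B6 spleen. In blood it was 517, 516 and 454 in F1, against 422, 516 and 430 in B6. The sums overlapped in both tissues (exact permutation p = 0.60 and 0.20), with a difference in spleen of 20 in signal. The split did not overlap: Klra3 was 63.4% ± 0.778 of the pair in F1 and 37.8% ± 1.76 in B6 spleen, and 60.2% ± 0.794 in F1 and 34.6% ± 1.56 in B6 blood. In CD49b+ cells of the graft the split also did not overlap between the models, at 77% ± 0.992 in F1 and 40.8% ± 6.89 in B6, while their sum was lower in F1, at 106 ± 20.7, against 213 ± 65.6 in B6. Exact p was 0.10 for each of these splits, the smallest possible. In CD49a+ cells the split overlapped, at 73.3% ± 24.7 in F1 and 57% ± 37.3 in B6 graft cells (exact p = 0.60) and at 55.9% ± 35.1 in F1 and 55.2% ± 40 in B6 recipient skin (exact p = 1.00). The reference holds C57BL/6 sequence, and how reads from BALB/c alleles were assigned between the 2 genes was not tested. The same limit holds for every difference between F1 and B6 given here, including those of Klra7, Klra1 and Klra6. Whether reads from BALB/c alleles were counted for these genes was not tested either.

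Between spleen and blood cells of the same model limma called 0 of the 9 genes, with an unadjusted p under 0.05 for 0 of 9 in each model, while 0.00623% of all genes were called in each. In the fit to blood and spleen alone, 0 of 9 were called as well, against 0.238% of all genes in F1 and 0.00626% in B6. Without overlap, 2 genes (Klra6 and Klra9) were lower in F1 spleen than in F1 blood, against 7.26% of all genes, and 1 was lower (Klra9) and 1 higher (Klra2) in B6 spleen than in B6 blood, against 5.53% and 4.61%. Klra9 had the largest difference of the 4 abundant genes, with a log2 change of -0.38 ± 0.11 in F1 (adjusted p = 0.277) and -0.27 ± 0.11 in B6 (adjusted p = 1), spleen minus blood. It was 152 ± 12.9 in F1 spleen and 198 ± 18 in F1 blood, and its signal was 246 ± 4.89 in B6 spleen and 298 ± 27.4 in B6 blood.

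On the deposited scale, CD49b+ cells of the graft held less Klra7, Klra9 and Klra3 signal than those of the spleen in every library of both models, while the test over all libraries called none of these differences. Scaled to the pan-leukocyte transcripts, the log2 changes in F1 were -0.39 for Klra7, -1.54 for Klra9 and -0.60 for Klra3, and in B6 they were 0.05, -0.24 and -0.07, none called, so the direction of Klra7 in B6 turned with the scale. In F1, the signal of Klra7 was 118, 95.7 and 132 in the graft, against 294, 356 and 314 in spleen. Klra9 had 18.8, 24.9 and 29.9 in F1 graft cells, against 142, 167 and 147 in F1 spleen cells. Klra3 had 67.1, 80.3 and 97.2 in F1 graft cells, against 238, 289 and 263 in F1 spleen cells. No graft library reached the spleen range for these genes, with log2 changes of -1.48, -2.60 and -1.69. Adjusted p-values were 0.252, 0.161 and 0.0744. Klra1 was closer, at 38, 36.3 and 39.8 in F1 graft cells, against 43.7, 45.2 and 79.2 in F1 spleen cells.

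In B6, Klra7 had 263, 442 and 239 in graft CD49b+ cells, against 515, 467 and 515 in spleen, and Klra9 had 83.8, 188 and 116 in the graft, against 247, 250 and 240 in spleen. Klra3 had 77.9, 99.3 and 75.5 in the graft, against 145, 165 and 139 in spleen. Klra1 overlapped, at 34.7, 97.9 and 128 in the graft, against 117, 118 and 156 in spleen. The log2 change in B6 was -0.72 for Klra7, -0.83 for Klra3 and -0.76 for Klra1, and none of the 4 genes was called. Replicate 2 of this group, the highest for Klra7, Klra9 and Klra3, also had the highest pan-leukocyte level, 85.04% of blood and spleen against 51.63% and 45.96% in the other two.

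Over all 9 genes, limma called 1 lower and 0 higher in F1 graft CD49b+ cells against spleen, where 1.61% of all genes were lower and 10.6% higher. It called 0 in B6, where 0.368% were lower and 3.7% higher. At an unadjusted p under 0.05, 3 genes were lower and 1 higher in F1 and 1 lower in B6. Without overlap, 5 of 9 genes were lower and 1 higher in F1, against 17.1% and 29.3% of all genes, and 4 lower and 2 higher in B6, against 12.8% and 21.9%. The called gene, Klra10, had 6.73, 0 and 0 in F1 graft cells, against 14.5, 11.8 and 14.9 in F1 spleen cells, a log2 change of -2.89 ± 0.91 (adjusted p = 0.0374). Ly49J, its product, is a less studied inhibitory member, and an entry of 0 in this table may be a failed estimate. With 1 library left out the call was lost in 5 of 6 fits, all but the one without replicate 1 of the graft, with adjusted p up to 0.168. Outside blood and spleen, Klra10 reached the filter level of 10 only in replicate 1 of B6 recipient skin. Its calls against spleen, here and in recipient skin, are therefore descriptions. When only the libraries of the 2 F1 groups shared the spread, 3 genes were lower (Klra3, Klra7 and Klra9, adjusted p of 0.00495, 0.00562 and 0.00313), Klra2 was higher and Klra10 was not called, while 7.15% of all genes were lower and 20.1% higher in that fit. The difference between the models in this change was called for 0 of 9 genes, with an unadjusted p under 0.05 for 0, and for 0% of all genes. It was -0.76 ± 1.17 for Klra7, -1.60 ± 1.71 for Klra9 and -0.86 ± 0.88 for Klra3. Between F1 and B6 graft CD49b+ cells themselves, 0 of 9 genes were called, with an unadjusted p under 0.05 for 0, against 0.181% of all genes. Klra7 and Klra9 were lower in F1 without overlap, 2 of 9 against 6.15% of all genes, and 0 were higher, against 5.43%.

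CD49a+ cells of recipient skin had little Ly49 signal in both models. In F1, Klra7 had 3.15, 10.6 and 16.2 in recipient skin, against 294, 356 and 314 in spleen, and Klra3 had 1.55, 25.7 and 10.4, against 238, 289 and 263. In B6, Klra7 had 8.26, 40.7 and 11.7 in recipient skin, against 515, 467 and 515 in spleen, and Klra3 had 10.7, 10.8 and 11.2, against 145, 165 and 139. Every skin library lay below every spleen library. Klra9 had 7.35, 14.3 and 1.68 in F1 recipient skin, against 142, 167 and 147 in F1 spleen, and 14.4, 36 and 0 in B6 recipient skin, against 247, 250 and 240 in B6 spleen. Klra1, the receptor gene with the smallest fall of the 4, had 17.3, 17.4 and 1.39 in F1 recipient skin, against 43.7, 45.2 and 79.2 in F1 spleen, and 56.5, 29.1 and 29.4 in B6 recipient skin, against 117, 118 and 156 in B6 spleen.

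By limma, 5 of the 9 genes were lower and 0 higher in F1 recipient skin than in F1 spleen, where 4.44% of all genes were lower and 11.3% higher. In B6, 4 of 9 were lower and 0 higher, where 11% were lower and 17.9% higher. Without overlap, 7 genes were lower and 0 higher in F1, against 11.7% and 23.8% of all genes, and 4 lower and 1 higher in B6, against 16.3% and 25%. Klra7 changed by -5.10 ± 0.83 in F1 (log2 ± SE, adjusted p = 0.000417) and by -4.88 ± 0.83 in B6 (adjusted p = 0.00034). Klra3 changed by -4.84 ± 0.63 in F1 (adjusted p = 3.02e-05) and by -3.66 ± 0.63 in B6 (adjusted p = 0.000358). Klra9 changed by -4.45 ± 1.21 in F1 (adjusted p = 0.0142) and by -4.89 ± 1.21 in B6 (adjusted p = 0.0051). Klra1 changed by -2.56 ± 0.62 in F1 (adjusted p = 0.00708) and by -1.80 ± 0.62 in B6 (adjusted p = 0.0312). The fifth gene in F1 was Klra10, at -3.20 ± 0.91 (adjusted p = 0.0186). The median change of the 9 genes was -2.56 in F1 and -1.34 in B6, beside 0.35 and 0.40 for all tested genes. For the 9 NK cell markers the median was -3.83 in F1 and -4.19 in B6, with 9 and 8 of them called lower. Ncr1, the gene for NKp46, was 28.5 ± 8.07 in F1 recipient skin and 870 ± 7.76 in F1 spleen. In B6 it was 18.3 ± 8.56 and 366 ± 36.4. The fall of the Ly49 genes was thus not particular to them. Without replicate 3 of B6 recipient skin, where Klra9 was listed at 0, its change was -3.37 (adjusted p = 0.0554). Without replicate 3 of F1 recipient skin, where Klra1 had 1.39, its change in F1 was -1.58 (adjusted p = 0.0308), against -2.56 with it. The call of Klra1 in B6 was lost in 5 of 6 such fits, all but the one without replicate 1 of recipient skin, with adjusted p up to 0.101. That of Klra10 in F1 was lost without replicate 1 or 3 of spleen or replicate 2 of recipient skin, with adjusted p up to 0.0826. The difference between the models was called for 0 of 9 genes, with an unadjusted p under 0.05 for 0 of them, and for 0.0125% of all genes.

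Recipient skin libraries also held less leukocyte RNA, at 34.98%, 17.43% and 14.72% of the blood and spleen pan-leukocyte level in F1 and 14.89%, 66.37% and 11% in B6. NK cell marker sums were 764 to 860 in F1 recipient skin, against 12166 to 13503 in F1 spleen, and 290 to 3426 in B6 recipient skin, against 12982 to 13656 in B6 spleen. Scaled to the pan-leukocyte transcripts, which moved the median of all genes to 2.29 in F1 and 2.28 in B6, Klra7 stayed lower, at -3.01 ± 0.70 in F1 (adjusted p = 0.00225) and -2.79 ± 0.70 in B6 (adjusted p = 0.00328). Klra3 stayed lower in F1 (-2.81, adjusted p = 0.00775) and was not called in B6 (-1.57, adjusted p = 0.106). Klra9 stayed lower in B6 (-3.81, adjusted p = 0.0387) and was not called in F1 (-2.47, adjusted p = 0.168). Klra1 changed by -0.58 in F1 and turned to 0.35 in B6 on this scale, neither called, and so its fall depends on the scale. Klra10 was not called on this scale either, at -2.81 in F1 recipient skin (adjusted p = 0.0975) and -2.57 in F1 graft CD49b+ cells (adjusted p = 0.235). Replicate 2 of B6 recipient skin, the library with the most leukocyte RNA of this population, had a signal of 40.7 for Klra7, 36 for Klra9, 10.8 for Klra3 and 29.1 for Klra1. NK cell markers differed in that library. Klrd1, the gene for the NK receptor chain CD94, had 282, against 502 ± 45.5 in B6 spleen, and Klrk1 had 919, against 1154 ± 168. Nkg7 had 759, against 2808 ± 170, Ncr1 had 8.48, against 366 ± 36.4, and Klrb1c had 25.9, against 912 ± 39.6. Its conventional dendritic cell marker sum was 1552, against 640 to 840 in B6 spleen. Leaving out the 6 libraries of low leukocyte level keeps 1 recipient skin library per model, so no recipient skin replicates remain and any p assumes that this library varies like the other groups. The log2 change against spleen was then -6.27 in F1 and -3.58 in B6 for Klra7, and -6.69 and -3.67 for Klra3. The F1 library kept, replicate 1, had a macrophage and monocyte marker sum of 7228, against 33.7 and 69.2 in replicates 2 and 3. Its NK cell marker sum was 764, so its pan-leukocyte level need not reflect NK cell RNA.

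**Figure D4:**
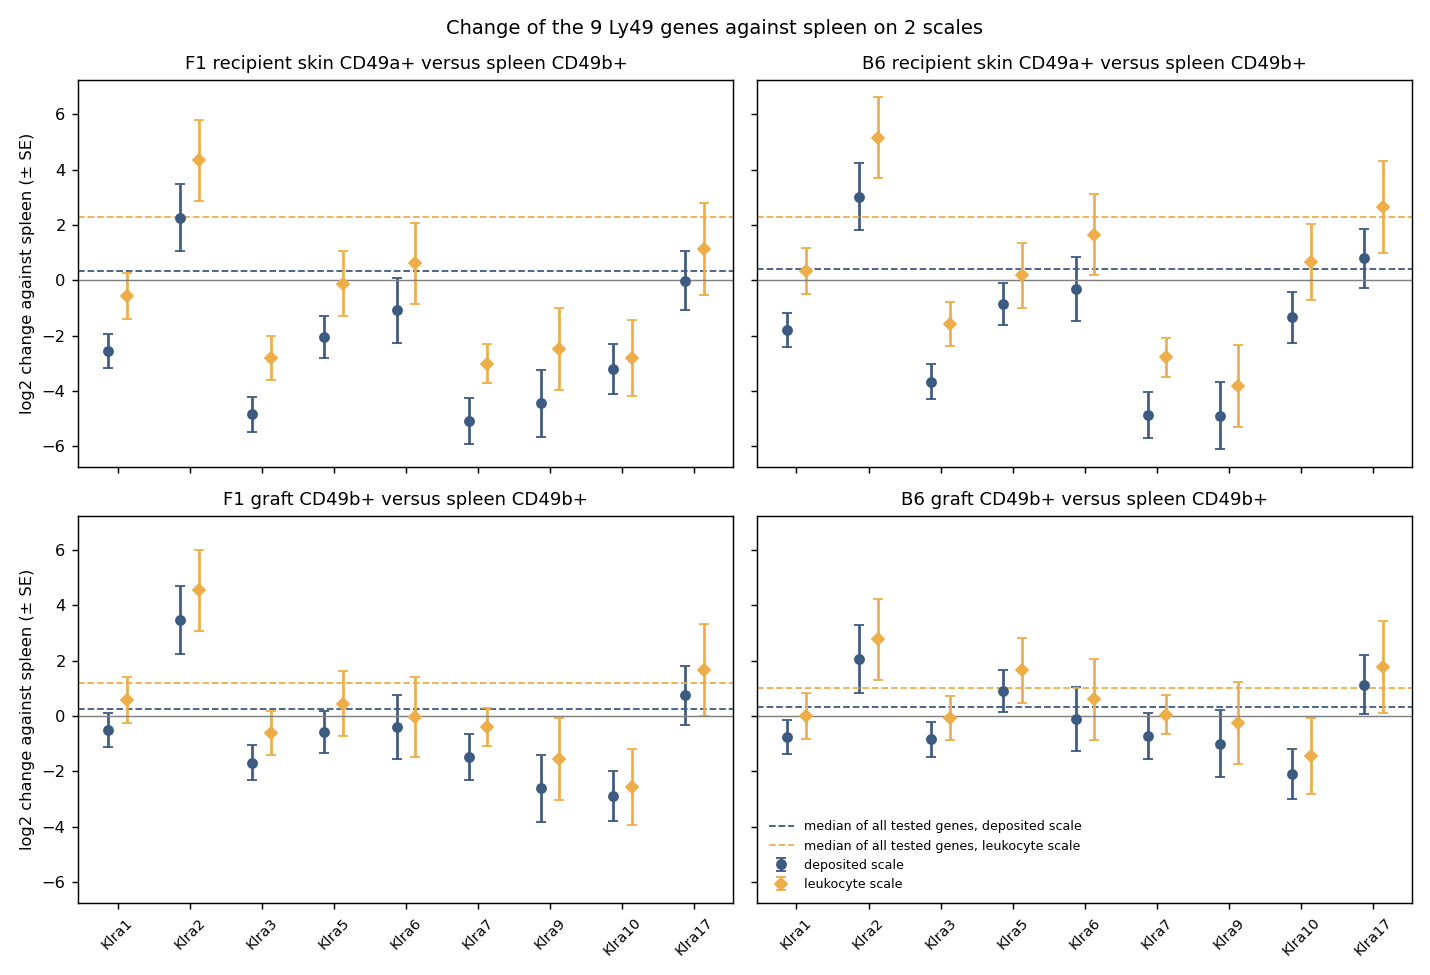
Log2 change of each gene against spleen with its standard error, for recipient skin CD49a+ cells (top) and graft CD49b+ cells (bottom), F1 left and B6 right, on the deposited scale (circles) and scaled to 20 pan-leukocyte transcripts (diamonds); dashed lines are medians of all tested genes. Klra7 lies at -5.10 and -4.88 in recipient skin on the deposited scale and at -3.01 and -2.79 on the leukocyte scale, below the medians, and Klra2 lies above 0 in all 4 panels.

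CD49a+ cells of the graft varied among libraries. In F1, Klra7 had 98.6, 20.9 and 32.4 in graft CD49a+ cells, against 118, 95.7 and 132 in graft CD49b+ cells, and in B6 it had 4.69, 257 and 88.7 in CD49a+ cells, against 263, 442 and 239 in CD49b+ cells. Klra9 had 14, 9.08 and 0 in F1 graft CD49a+ cells, against 18.8, 24.9 and 29.9 in CD49b+ cells, and 0, 151 and 26.3 in B6 CD49a+ cells, against 83.8, 188 and 116 in CD49b+ cells. Klra3 had 31, 9.49 and 9.86 in F1 graft CD49a+ cells, against 67.1, 80.3 and 97.2 in CD49b+ cells, and 23.2, 93.9 and 12.9 in B6 CD49a+ cells, against 77.9, 99.3 and 75.5 in CD49b+ cells. The groups were apart for Klra3 and Klra9 in F1 and overlapped in B6, where replicate 2 was highest for all 3 genes. That library also had the highest pan-leukocyte level of its group, 62.53%, against 7.996% and 16.16%.

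Between graft CD49a+ and graft CD49b+ cells limma called 0 of 9 genes in either model, with an unadjusted p under 0.05 for 2 lower in F1 and 3 lower in B6, and 0.00623% and 0.0125% of all genes were called. Without overlap, 3 genes (Klra1, Klra3 and Klra9) were lower in F1 CD49a+ cells, against 3.75% of all genes, and 0 in B6. Without replicate 2 of B6 graft CD49a+ cells, Klra7 was called lower in B6 CD49a+ cells, at -3.75 (adjusted p = 0.0195). Against recipient skin CD49a+ cells, 0 of 9 were called, with an unadjusted p under 0.05 for 1 higher in F1 and 2 higher in B6, beside 0.0249% and 0.224% of all genes called. Klra7 averaged 50.6 ± 42 in F1 graft CD49a+ cells and 9.98 ± 6.54 in F1 recipient skin, a log2 change of 2.15 ± 0.83 (adjusted p = 0.44), and the groups did not overlap, as for 5.27% of all genes. Klra3 in B6 averaged 43.3 ± 44.1 in cells of the graft and 10.9 ± 0.276 in recipient skin, a change of 1.42 ± 0.63 (adjusted p = 0.354), also without overlap, as for 4.06% of all genes. Without replicate 1 of B6 graft CD49a+ cells, Klra7 was called higher in the B6 graft than in recipient skin, at 3.16 (adjusted p = 0.0391). Without the 6 libraries of low leukocyte level, the change of Klra3 between graft CD49a+ cells and recipient skin was 2.60 in F1, with 3 libraries against 1, and 3.01 in B6, with 1 library against 1, and so without a replicate check in B6.

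Klra1 had a larger mean share of the Ly49 signal in skin CD49a+ cells than in spleen. In B6 it was 57.4, 76.5 and 45.2 in graft CD49a+ cells, with 56.5, 29.1 and 29.4 in recipient skin. Its share of the summed signal in B6 recipient skin was 25% ± 3.43, without overlap with the 12.2% ± 1.71 of B6 spleen, and the share in B6 graft CD49a+ cells was 22.5% ± 15.2. In F1 recipient skin the share was 12.7% ± 7.52, overlapping the 6.71% ± 2.31 of F1 spleen, and F1 graft CD49a+ cells had 13.8% ± 8.58. The sums behind these shares were small, at 135 ± 39.1 in F1 and 356 ± 249 in B6 cells of the graft, and 79.4 ± 39.1 in F1 and 155 ± 64 in B6 cells of recipient skin, against 836 ± 78.7 in F1 and 1064 ± 32.5 in B6 spleen.

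Klra2 and Klra17 encode receptors known mainly outside NK cells: Ly49B is found on myeloid cells, and Ly49Q on plasmacytoid dendritic cells and neutrophils. Klra2 had 57, 26.4 and 31.9 in F1 graft CD49b+ cells, against 1.82, 3.51 and 2.04 in F1 spleen, and 42.4, 1.03 and 17.3 in B6 graft CD49b+ cells, against 2.63, 1.57 and 1.37 in B6 spleen. In recipient skin it had 58.9, 21 and 2.23 in F1 and 34.1, 8.34 and 35.1 in B6. Outside F1 blood replicate 2, Klra2 reached the filter level of 10 only in skin. It was thus tested because of the groups where it is high, and its changes and calls against spleen are descriptions. The changes against spleen were 3.47 ± 1.22 in F1 graft CD49b+ cells (adjusted p = 0.0619), 2.06 ± 1.22 in B6 graft CD49b+ cells (adjusted p = 0.334), 2.26 ± 1.22 in F1 recipient skin (adjusted p = 0.202) and 3.02 ± 1.22 in B6 recipient skin (adjusted p = 0.0633), none called on the deposited scale. On the leukocyte scale Klra2 was called in F1 graft CD49b+ cells (4.55, adjusted p = 0.0439), F1 recipient skin (4.33, adjusted p = 0.0203) and B6 recipient skin (5.15, adjusted p = 0.0069). Medians of all genes there were 1.21, 2.29 and 2.28, and 9.95%, 40.5% and 40.9% of all genes were called higher. Klra2 was not called in B6 graft CD49b+ cells (2.78, adjusted p = 0.318). Without replicate 2 of B6 recipient skin, Klra2 was called on the deposited scale, at 3.66 (adjusted p = 0.0333). With the library number as a block, Klra2 was called in F1 graft CD49b+ cells (adjusted p = 0.0404) and B6 recipient skin (adjusted p = 0.0427). Summed markers of macrophages and monocytes, 8 of 9 of which were in the table, were 44.6 to 319 in F1 graft CD49b+ cells, 33.7 to 7228 in F1 recipient skin and 47.7 to 110 in B6 recipient skin, against 6.26 to 369 in F1 and 31.5 to 112 in B6 spleen. C1qa and C1qb were at 0 in all 3 F1 recipient skin libraries, and C1qa, C1qc and Cd14 in all 3 of B6. The part of such cells in the Klra2 signal was not tested.

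The Klra2 signal of 270 in F1 blood replicate 2 stood against 2.01 and 4.98 in the other F1 blood libraries and 1.05, 1.2 and 0.382 in B6 blood. The pseudogene Klra11-ps had 296 in the same library, against 2.28 and 0.552 in the other two, while its macrophage and monocyte marker sum was 7.95. Klra17 was 0 to 3.53 in blood and spleen and 0 to 22.6 in skin. Its highest value, 22.6, was in replicate 2 of F1 graft CD49a+ cells, where neutrophil markers summed to 10983, against 726 and 421 in the other libraries of the group. Its next highest, 12.9, was in replicate 3 of B6 graft CD49b+ cells, where they summed to 248. Plasmacytoid dendritic cell markers summed to 387 in the library at 12.9, against 136 and 83.6 in the others of its group. They summed to 64.5 in the library at 22.6, against 55.8 and 107. The part of such cells in the Klra17 signal was not tested. No comparison called Klra17.

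Klra5, Klra6 and Klra10 were low throughout. Klra5, whose product Ly49E is the Ly49 receptor of fetal NK cells, had 10, 30.4 and 20.6 in F1 spleen, against 8.96, 3.95 and 9.36 in B6 spleen, and it was 5.73 to 10.1 in F1 and 10.3 to 17.3 in B6 graft CD49a+ cells. Its F1 and B6 values in spleen did not overlap, and the log2 difference of 1.29 ± 0.57 had an adjusted p of 0.561 in the fit to blood and spleen. Klra6 had 1 high library in each of 2 skin groups, 83.5 in F1 graft CD49b+ replicate 1, where the others were at 0, and 59.4 in B6 recipient skin replicate 1, where the others had 4.17 and 1.92. Klra10 had 11 to 17.5 in F1 and 12.3 to 27.3 in B6 circulating cells, and 0 to 7.95 in F1 and 0 to 18.6 in B6 skin.

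Ordered by mean, Klra7, Klra9 and Klra10 were highest in B6 blood and Klra3 in F1 blood, and the lowest group was F1 recipient skin for Klra1, Klra5, Klra7 and Klra10, B6 recipient skin for Klra3 and F1 graft CD49a+ cells for Klra9 and Klra6. Most neighbours in these orders overlapped: of the 9 steps between neighbouring groups, 1 was without overlap for Klra1 and Klra7, 2 for Klra3 and 3 for Klra9, and none for Klra5, Klra10 and Klra17. Across the 30 libraries Klra7 correlated with Klra9 and with Klra3 at r = 0.88 each (log2 scale), Klra1 with them at 0.59 to 0.67, and Klra2 with them at -0.52 to -0.46. Outside the family, the genes most like Klra7 were Nkg7 (r = 0.940), Ccl5 (0.936) and Rasa3 (0.933), those most like Klra3 were Nfatc3 (0.923), Ccl5 (0.920) and Adamts14 (0.917), and those most like Klra9 were Rassf5 (0.929), Ppp1r18 (0.925) and Itgal (0.923). Klra1 was most like Plscr4 (0.791), Baiap3 (0.786) and Itga2 (0.781), the last being the gene for CD49b, by which cells were sorted. Klra10 was most like S1pr5 (0.819) and Itgam (0.783), and Klra2 most like BC021785 (0.908). These libraries share the contrast of skin with blood and spleen, so the coefficients are descriptions.

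Calls in other genes of the receptors' setting depended on the scale as well. On the leukocyte scale limma called 40.5% of all genes higher and 0.524% lower in F1 recipient skin against spleen, 40.9% and 1.2% in B6, 9.95% and 0.131% in F1 graft CD49b+ cells, and 1.17% and 0.0125% in B6. On the deposited scale, of 17 other receptors of the NK gene complex, 14 were lower in F1 and 13 in B6 recipient skin against spleen, and 7 in F1 and 1 in B6 graft CD49b+ cells, with none higher. On the leukocyte scale, 5 were lower and 2 higher in F1 and 9 lower and 2 higher in B6 recipient skin, and 0 changed in graft CD49b+ cells. Klrb1c, the gene for NK1.1, was 43.3 ± 8.11 in F1 recipient skin and 628 ± 67.5 in F1 spleen (adjusted p = 8.61e-05), and 18.9 ± 9.6 in B6 recipient skin and 912 ± 39.6 in B6 spleen (adjusted p = 2.26e-07), and it stayed lower in both on the leukocyte scale. Of 13 genes of inhibitory signalling, phosphatases and kinases together with the ubiquitin ligase Cbl, the exchange factor Vav1 and the adaptor Crk, 5 in F1 and 4 in B6 recipient skin were lower, and 2 in F1 and 0 in B6 graft CD49b+ cells. They included the kinase gene Csk in recipient skin, with changes of -3.18 in F1 and -2.50 in B6, and Lck in F1, at -3.82 in recipient skin and -2.33 in the graft. On the leukocyte scale the counts were 5 higher and 1 lower (Lck, at -1.61) in F1 and 3 higher in B6 recipient skin, and 1 higher in F1 graft CD49b+ cells. Of 17 tested factors of NK receptor genes, 3 were lower and 1 higher in F1 recipient skin, 6 lower in B6, and 1 lower and 1 higher in F1 graft CD49b+ cells. The higher one was Nfil3 both times, a factor of NK cell development, at 91.6 ± 47.5 in F1 graft CD49b+ cells and 14.6 ± 0.166 in F1 spleen, and the lower one in the graft was Tbx21, the gene for T-bet, at 79.9 ± 19.9 in F1 graft CD49b+ cells and 526 ± 50 in F1 spleen. On the leukocyte scale 2 factors were higher and 1 lower in F1 recipient skin, 3 higher and 1 lower in B6, and 1 higher in F1 graft CD49b+ cells, which was Nfil3 at 3.52.

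The list of class I genes and genes of class I assembly holds 14 genes: class I heavy chains, which are or resemble the ligands, their light chain B2m, the peptide transporter and loading genes Tap1, Tap2 and Tapbp, and Nlrc5, a transcriptional regulator. In the fit to blood and spleen libraries, 3 of 14 were lower and 2 higher in F1 spleen than in B6 spleen, and 6 lower and 1 higher in F1 blood than in B6 blood. Those lower in blood were the heavy chain genes H2-K1, H2-Q6 and H2-Q7 together with B2m, Tap1 and Nlrc5. H2-K1 was 2248 ± 128 in F1 and 3842 ± 253 in B6 spleen (log2 -0.77, adjusted p = 0.000572), and 2049 ± 113 in F1 and 4249 ± 273 in B6 blood (-1.05, adjusted p = 7.19e-05). H2-Q7 was lower too, at -1.14 in spleen and -1.61 in blood, and H2-Q4 was higher, at 1.44 and 1.02. Assignment of reads from BALB/c class I alleles was not tested. In recipient skin against spleen, 2 of the 14 genes (H2-Q7 and Tap2) were lower in F1 and 12 in B6 on the deposited scale, whereas on the leukocyte scale 2 were higher in F1, and 2 higher and 1 lower in B6. In graft CD49b+ cells 0 of 14 changed in either model on both scales.

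The medians of these lists in recipient skin against spleen lay below those of all tested genes on both scales. On the deposited scale the median log2 change was -3.47 in F1 and -3.58 in B6 for the receptors, -0.73 and -1.15 for inhibitory signalling, -1.53 and -1.99 for the factors and -1.32 and -2.10 for class I genes, beside 0.35 and 0.40 for all genes. On the leukocyte scale it was -1.26 in F1 and -1.46 in B6 for the receptors, 1.48 and 0.97 for inhibitory signalling, 0.63 and 0.16 for the factors and 0.89 and 0.06 for class I genes, beside 2.29 and 2.28 for all genes.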

How the data were processed

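RNA of sorted NK cells was sequenced as smartRNA-Seq, in 10 groups of 3 libraries. Per the submitters' processing notes, the authors used Salmon and DESeq2 and the build GRCm38/mm10. The deposited table holds this signal, with fractional values; whole reads could not be recovered, so count tests were not used, and read depth and precision are unknown. Tool versions were not given in the sources used here. Of 30616 entries, 1 without a name, 27 with symbols turned into dates and 1 with a letter for a number were left out, and 2 unnamed numeric columns were not used. limma 3.58.1 (R 4.3.3) was fitted to log2(signal + 1), 1 mean per group over all 30 libraries. It used eBayes trend and robust settings, for 16045 genes that reached 10 in 3 or more libraries. All 9 genes passed. Klra17 reached 10 only in skin, and Klra2 only in skin and F1 blood replicate 2. Klra10 reached it in blood and spleen and in B6 recipient skin replicate 1. Adjustment was Benjamini-Hochberg over all genes, threshold 0.05, in 15 comparisons. A log2 change on this scale understates that of low genes. The fit was tested on simulated data, but the outcome is not given here, so it lends no weight to the calls. Shares were compared by exact permutation (scipy 1.17.1). Sequences and locations come from GENCODE M21; 2 of 16 Klra symbols had no match. All 9 genes are named; from each list, up to 3 called genes per comparison, and per gene the 3 most similar outside the family. The genes, lists and tests were chosen with earlier results of these data known.
Alternatives changed the pseudocount, filter, scaling, spread, reference tissue, library block and single libraries.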

Additional observations from a re-analysis of the deposited data

How the results depend on the processing

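Of 292 recomputed counts of called genes and shares, 269 stayed within 1.5 times of the reported value or the spread, and 23 moved. Of 232 recomputed changes of single genes, 195 kept direction and side of the threshold, 31 lost their call, 5 gained one and 1 reversed. The reversed one was Klra1 in B6 recipient skin against spleen, at 0.35 on the leukocyte scale. Both totals include results that could not lose a call. Most comparisons had a count of 0, which could only rise. The changes of Klra3, Klra7 and Klra9 between F1 and B6 were not called in the test over all libraries. These totals therefore say little about how stable the calls were. F1 graft CD49b+ cells against spleen had 1 gene called, and 0 with no filter or a filter of 50. The count was 2 with the same total outside satellite-like genes, 2 with the replicate block and 4 when only the groups compared shared the spread. In that last fit 7.15% of all genes were lower and 20.1% higher. For the filter, total and block settings the share of all genes is not given here, so those counts cannot be set against it. Recipient skin against spleen had 3 called in F1 on the leukocyte scale (Klra2 higher, Klra3 and Klra7 lower), beside 40.5% of all genes higher and 0.524% lower. With only the groups compared, 3 were called in F1 and 2 in B6, and the share of all genes called in those fits is not given here. Without libraries under 25% of the pan-leukocyte level, recipient skin and B6 graft CD49a+ cells are down to 1 library each, so only sizes are given. Graft CD49a+ against recipient skin then changed by 2.60 for Klra3 and 3.33 for Klra7 in F1, and by 3.01 for Klra3 in B6. The difference between the models in the change of recipient skin against spleen was -3.02 for Klra3. F1 against B6 had 3 called in blood and 2 in spleen among circulating libraries alone. Both of the last 2 settings were chosen after seeing the data. The causes were not tested.

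Leaving out 1 library gave 4 to 5 called genes in F1 and 2 to 4 in B6 recipient skin against spleen, 0 to 1 in F1 graft CD49b+ cells against spleen, and 0 to 1 in B6 graft CD49a+ cells against graft CD49b+ cells and against recipient skin. The share of all genes called in these fits is not given here, so these counts cannot be set against it. The replicate numbers do not pair the libraries by any label. Same-numbered libraries deviated together over 0.1 in every pair for 1 of 20 group pairs, B6 graft CD49a+ and recipient skin (lowest r = 0.14), for which the block called 0 of 9 genes, as without it. Read depth is not known, so low values in skin could not be told from absence.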
